A study of Drosophila melanogaster with 16 samples.

Results

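The genes described here encode the subunits of the mitochondrial respiratory chain and of ATP synthase that come from nuclear chromosomes, measured in whole Drosophila melanogaster larvae. They were chosen by symbol: the ND, UQCR, COX4 to COX8 and ATPsyn genes together with RFeSP, Cyt-c1, Cyt-c-p, cype and levy, with at least 1 CPM in at least 4 of the 16 libraries. This gave 62 of the 9863 listed genes, and every gene with a matching symbol passed the level filter. They fall into 32 genes of complex I, 8 of complex III, 1 for cytochrome c, 9 of complex IV and 12 of ATP synthase. The symbol rule misses the alpha subunit of ATP synthase (blw), its epsilon subunit (sun) and CG7630, a complex IV subunit in the current annotation, which are given apart. No sequence is printed.

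Electrons from NADH enter the chain at complex I, pass by way of ubiquinone to complex III, and are carried by cytochrome c to complex IV, which hands them to oxygen. Complexes I, III and IV pump protons across the inner mitochondrial membrane, and ATP synthase lets the protons flow back through its membrane ring to turn a shaft that drives ATP formation. The complexes are built from subunits of nuclear and mitochondrial genes, and muscle and gut are larval tissues rich in mitochondria.

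Larvae of a control strain were compared with larvae of the allele cwo B9, which the labels call mutant. cwo encodes Clockwork orange, a transcriptional repressor of the circadian clock, and the series asks how it bears on the larval response to sugar. All larvae, first-instar at the start, ate the low-sugar diet, which held 10% yeast, for 24 h at 25 °C. The early second-instar larvae then spent 8 h either on a new batch of that diet or on the high-sugar diet, which held 15% sucrose beside the 10% yeast; blue dye was in the food of both. Each genotype on each diet gave 4 libraries, so that 4 groups were compared. Where these 4 came from is not in the labels, and p-values measure only their spread, which may be technical. In libraries labelled mutant, cwo itself was higher than in control, by 1.64 log2 units with the low-sugar diet and 2.01 with the high-sugar one, and the label is the submitters'. In RNA from whole larvae, fewer cells of a type and less RNA per cell cannot be told apart.

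Levels are CPM of the deposited table. A change is a log2 difference of CPM + 0.5, given with its SE from limma; tests are two-sided, and the Benjamini-Hochberg adjustment of p runs over all 9837 genes tested in a comparison. A gene is said to rise or fall where its adjusted p was under 0.05. The values of each library are whole multiples of one step, from which the depth was 44.9 to 54.2 M reads per library. The library columns did not sum to one total: the mean sum was 966512 in control on low sugar, 1025986 in control on high sugar, 990431 in mutant on low sugar and 1018451 in mutant on high sugar. The counts below therefore depend on the scaling. Where it shifts a count of members by complex, the value with equal totals (each library divided by its own sum) or with quantile normalization stands beside it. Whether groups overlap was judged on the values as deposited, unless another scaling is named.

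Together the 62 genes took 2.44% to 2.74% of the summed values of a library. Per kilobase of annotated exon in control larvae on low sugar, the c-ring subunit ATPsynC stood highest at 1761 ± 12.4 CPM per kb (SD, n = 4). Next came the catalytic subunit ATPsynbeta at 1705 ± 33.1 and the electron carrier Cyt-c-p at 1359 ± 54.0 CPM per kb, so the first 2 lay close to each other and all 3 stood far above the median gene, 220 CPM per kb. The median gene of complex I reached 152 CPM per kb, that of complex III 349, that of complex IV 421 and that of ATP synthase 560. Within complex I the range ran from 10.7 CPM per kb for ND-AGGG to 575 for ND-MLRQ, whose human counterpart NDUFA4 is counted in complex IV. The 7 nuclear subunits of the catalytic core, which hold the flavin and iron-sulfur clusters that carry electrons, lay close to each other, from 141 CPM per kb for ND-20 to 188 for ND-49. The one gene near the floor was ATPsynepsilonL, an epsilon-like copy, with 2.05, 2.85, 2.19 and 1.58 CPM in the control libraries on low sugar and 32 to 132 reads over the 16 libraries.

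Replicates agreed closely for these genes. The median coefficient of variation within groups was 4.73% over the 62 genes, against 7.06% over all genes tested and 5.78% over 1650 other genes of similar level. The members also moved together from library to library: after removing group means, the median Pearson correlation over the 1891 pairs of genes was 0.81, and 96.7% of pairs were positive. Pairs within a complex had a median of 0.80 and pairs from different complexes 0.81, a description over 16 libraries that share their depth and scaling, with no test. Counts of members called are thus not counts of independent genes.

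**Figure D1:**
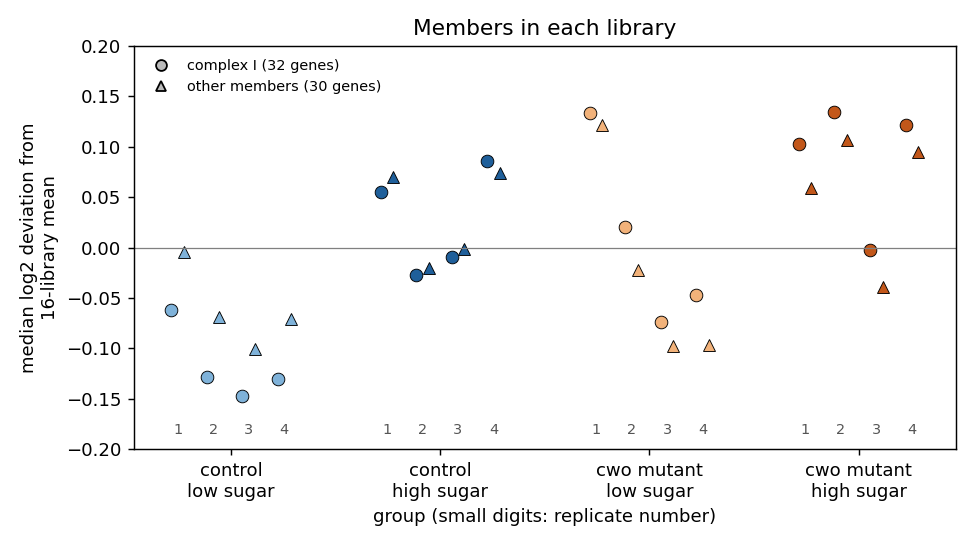
Median log2 deviation of the 32 complex I genes (circles) and of the other 30 genes (triangles) from their 16-library mean, for each library (x axis, grouped, with replicate numbers). All 4 libraries of control on low sugar lie below 0, and replicate 1 of mutant on low sugar lies apart from the other 3 of its group.

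The plot of deviations by library shows these joint movements. The median deviation over all 62 genes was -0.03, -0.10, -0.12 and -0.10 log2 units in control on low sugar and 0.06, -0.02, -0.01 and 0.08 in control on high sugar. In mutant on low sugar it was 0.12, 0.00, -0.09 and -0.08, so replicate 1 stood above the others, and in mutant on high sugar it was 0.08, 0.12, -0.02 and 0.11, with replicate 3 the lowest. These 2 libraries decide several counts below.

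The summed level of the 62 genes shows the size of the diet response. In control on low sugar it was 24643, 23885, 23491 and 23728 CPM, and on high sugar 26514, 25110, 25274 and 26658 CPM, so that every high-sugar library was above every low-sugar library. The group means were 23937 ± 498 and 25889 ± 809 CPM (SD, n = 4), a rise of 8.2%. The sum was higher by 10.8% for complex I, 7.8% for complex III, 8.0% for complex IV and 8.0% for ATP synthase, while the difference of Cyt-c-p was -3.2%. With equal totals the difference of the whole sum was 1.89%, and with median-ratio scaling 9.49%. The full separation was lost with equal totals, where the sums were 24447 to 25368 on low sugar and 24572 to 26028 on high sugar. The median difference per gene followed the scaling too: it was 0.13 in complex I and stayed above 0 under each scaling, while that of complex IV (0.08) turned to -0.01 with equal totals, and those of complex III (0.12) and ATP synthase (0.10) to -0.03 and -0.02 with quantile normalization.

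Among single genes in control larvae, 28 of the 62 rose on high sugar and none fell by limma. At an unadjusted p under 0.05, 34 were higher and 0 lower, and the authors' deposited table calls 27 risen and 0 fallen. Of all genes tested, 33.1% rose and 34.8% fell in this comparison. In 28 members every high-sugar library lay above every low-sugar one and in 0 below, beside 31.3% and 32.9% of all genes. The median difference of the members was 0.12, against 0.00 for all genes tested, and 58 of 62 lay above 0. The differences were small: the median size over the members was 0.12 log2 units, against 0.45 over all genes called. Equal totals left 8 members that rose and 1 that fell (Cyt-c-p). Quantile normalization gave 13 that rose and 3 that fell (Cyt-c-p, COX6B and ND-ACP). Most of these calls thus turn on how the libraries are scaled. Of the 9837 genes tested, 2604 rose and 4063 fell with equal totals, and 3157 rose and 3447 fell with quantile normalization. Under both scalings the share of members that rose was below that of all genes. Without replicate 4 of control on high sugar 19 members rose.

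Complex I supplied most of the calls. In control larvae 18 of its 32 genes rose, 10 of 14 in the matrix arm, which oxidises NADH, and 7 of 16 in the membrane arm, which pumps protons. Under equal totals 7 of the 32 rose, and with quantile normalization 13 rose and 1 fell.

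The largest difference among the genes called was that of ND-13B, an accessory subunit of the matrix arm (human NDUFA5; FBgn0047038, 3L 10693184 to 10694108, minus strand, BDGP6). It stood at 104, 99.0, 104 and 101 CPM in control on low sugar and at 127, 122, 124 and 129 CPM on high sugar. The groups did not overlap, and the rise was 0.29 ± 0.05 (adjusted p = 6.97e-05).

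ND-18, the counterpart of human NDUFS4, an accessory subunit of the matrix arm (FBgn0031021, X 19492421 to 19493337, plus strand), was called too. It stood at 95.4, 93.7, 94.8 and 95.0 CPM on low sugar and at 115, 109, 118 and 121 CPM on high sugar, and rose by 0.29 ± 0.05 (adjusted p = 7.15e-05). Every high-sugar library lay above every low-sugar one. Its exons overlap those of CG12204 on the other strand, a gene that fell, and the labels do not say whether strand was used in counting.

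ND-39, a matrix-arm subunit related to human NDUFA9, rose by 0.25 ± 0.04, from 307 ± 8.23 to 365 ± 13.4 CPM (SD, n = 4). ND-B17.2 rose by 0.26 ± 0.06 and the membrane-arm subunit ND-B18 by 0.22 ± 0.04. Over the 28 alternative settings run, the calls of ND-13B, ND-18, ND-39, ND-B17.2 and ND-B18 in control larvae were all kept, with a highest adjusted p of 0.0212.

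Of the catalytic core, 6 of 7 rose. ND-75, the largest iron-sulfur subunit (X 8248651 to 8251687, minus strand), went from 492, 491, 477 and 483 CPM to 546, 559, 530.1 and 538 CPM, again without overlap, a rise of 0.16 ± 0.03 (adjusted p = 0.000687). ND-51, which binds NADH and the flavin, rose by 0.16 ± 0.04, and ND-49, at the quinone site, by 0.16 ± 0.04. ND-20 rose by 0.18 ± 0.05, ND-24 by 0.12 ± 0.04 and ND-30 by 0.13 ± 0.05. The remaining subunit, ND-23, had a difference of 0.09 ± 0.04 that did not pass (adjusted p = 0.0567). Of these 7, ND-51 alone passed with equal totals. At the other end of complex I, the acyl carrier protein ND-ACP (0.01 ± 0.06) and the low-level membrane-arm gene ND-AGGG (0.01 ± 0.10) had differences near 0, and that of ND-ACP turned to -0.15 with quantile normalization.

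In complex III 4 of 8 genes rose. UQCR-Q rose by 0.15 ± 0.05, the core proteins UQCR-C1 and UQCR-C2 by 0.14 ± 0.04 and 0.12 ± 0.04, and the Rieske iron-sulfur protein RFeSP by 0.12 ± 0.05 at the edge of the threshold (adjusted p = 0.04999). Cyt-c1, which passes electrons on to cytochrome c, had a difference of 0.09 ± 0.05 (adjusted p = 0.116). None of the 8 passed by limma with equal totals or with quantile normalization, where the differences of RFeSP, UQCR-C1 and UQCR-C2 were -0.04, -0.03 and -0.08.

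In complex IV 2 of 9 rose, against 1 (COX4) with equal totals and 0 with quantile normalization, where COX6B fell. COX4 stood at 528, 523, 509 and 515 CPM on low sugar and at 616, 592, 581 and 623 CPM on high sugar. The libraries separated fully, and the rise was 0.22 ± 0.05 (adjusted p = 0.00113). COX5A rose by 0.15 ± 0.06, with overlapping groups (adjusted p = 0.0348), a difference of -0.023 with quantile normalization, and COX6B had the lowest difference of the complex, 0.02 ± 0.04. CG7630, outside the symbol rule, rose by 0.17 (adjusted p = 0.0146), a call lost with equal totals or with quantile normalization.

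In ATP synthase 4 of 12 rose, against 0 with equal totals and 0 with quantile normalization by limma. These were the peripheral-stalk subunits ATPsynB (0.17 ± 0.05) and ATPsynD (0.16 ± 0.05), the rotor shaft ATPsyngamma (0.11 ± 0.04, but -0.079 with quantile normalization) and the catalytic subunit ATPsynbeta (0.12 ± 0.04). ATPsynbeta (4 1031484 to 1034917, plus strand) stood at 4148, 4122, 3985 and 4018 CPM on low sugar and at 4528, 4347, 4346 and 4501 CPM on high sugar. The groups did not overlap (adjusted p = 0.0164), yet the difference was -0.03 with quantile normalization. The c-ring gene ATPsynC did not pass (0.09 ± 0.04, adjusted p = 0.0704), nor did blw (0.05) or sun (0.09). ATPsynepsilonL had the lowest value of all members, -0.32 ± 0.23, at a level of about 2 CPM.

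**Figure D2:**
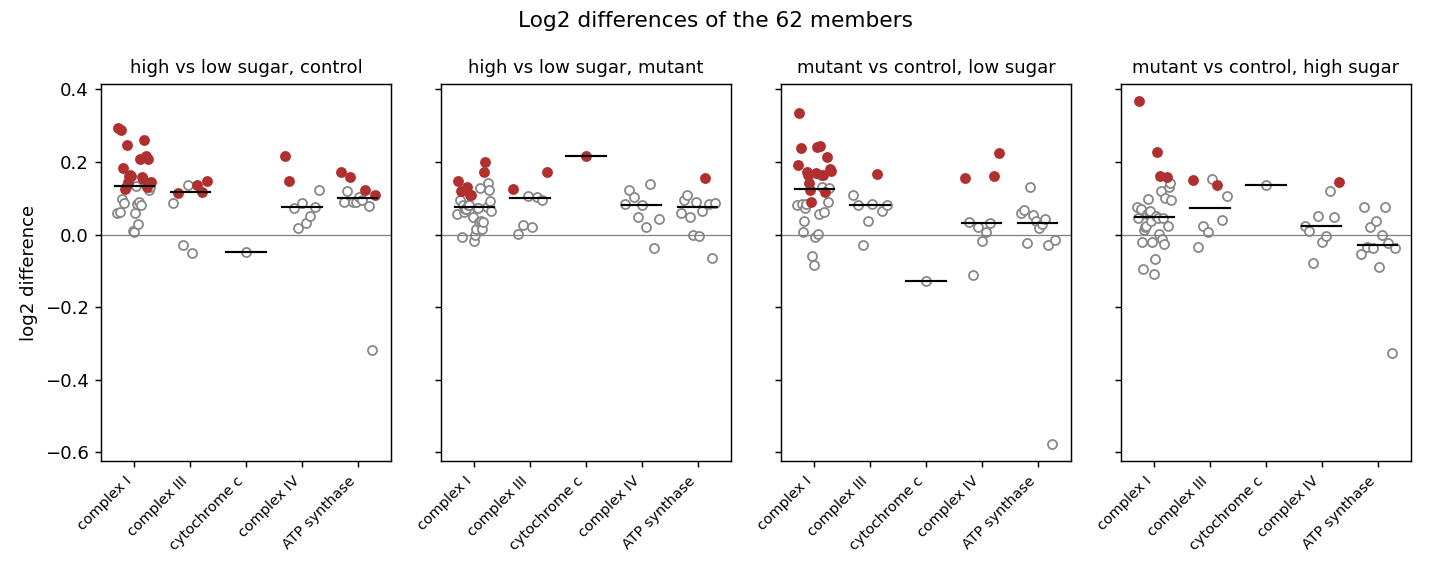
Log2 differences of the 62 genes (points) by complex in 4 comparisons, with filled points for genes that passed (adjusted p under 0.05) and black lines for the median of each complex. Nearly all points lie within 0.4 of 0, the exception being ATPsynepsilonL at -0.58 in mutant against control on low sugar.

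The same diet change in larvae labelled mutant gave a sum of 27396, 24932, 23874 and 24117 CPM on low sugar and of 27062, 27385, 25430 and 27529 CPM on high sugar. The groups overlapped through replicate 1 of the low-sugar group, which reached the level of the high-sugar libraries. The means were 25080 ± 1609 and 26852 ± 967 CPM, a difference of 7.1%, or 4.18% with equal totals.

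In the mutant 11 of the 62 genes rose and none fell by limma, where 22.5% of all genes tested rose and 29.5% fell. The 11 are thus 17.7% of the members, a share below that of all genes. The diets did not overlap in 4 members, all higher on high sugar, beside 18.9% of all genes higher and 26.3% lower. At an unadjusted p under 0.05, 17 were higher and 0 lower, and the authors' deposited table calls 10 risen and 0 fallen. The median difference was 0.08, with 55 of 62 above 0. Leaving out 1 library changed this count most: it was 34 without replicate 1 of mutant on low sugar and 18 without replicate 3 of mutant on high sugar. It was 7, 6 and 5 without replicates 2, 3 and 4 of mutant on low sugar, and 7, 7 and 6 without replicates 1, 2 and 4 of mutant on high sugar. Equal totals gave 6 that rose, and in a fit of the 8 mutant libraries alone 4 rose. With quantile normalization 9 rose, of which 6 were among the 11. Of the 9837 genes tested, 1817 rose and 3296 fell with equal totals, and 2405 rose and 2680 fell with quantile normalization.

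Of the 11, 7 belonged to complex I, against 3 with equal totals. ND-B18 had the smallest adjusted p, with 79.4, 76.1, 72.2 and 72.9 CPM on low sugar and 89.7, 85.4, 82.3 and 88.5 CPM on high sugar. Its groups did not overlap, and it rose by 0.20 ± 0.04 (adjusted p = 0.000635), near the 0.22 of control larvae. ND-75 rose by 0.11 ± 0.03, ND-13B by 0.15 ± 0.05 and UQCR-Q by 0.17 ± 0.05. ATPsynbeta rose by 0.15 ± 0.04 (adjusted p = 0.00573), though its value was -0.02 with quantile normalization, and no gene of complex IV passed. In both genotypes 9 genes rose: ND-13B, ND-18, ND-39, ND-51, ND-75, ND-B17.2, ND-B18, UQCR-Q and ATPsynbeta. The like share of all genes was not counted. Over the 28 alternatives, ND-B18 kept its call in each genotype, while in mutant ND-18 kept it in 12 and ND-39 in 20. The control calls of ND-75, UQCR-Q and ATPsynbeta were lost with equal totals and with quantile normalization.

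The test of the difference between the 2 diet responses named 1 member, Cyt-c-p, where 7.92% of all genes tested differed in that direction and 8.95% in the other. That direction held 47.0% of all genes called here and 64.2% with equal totals, under which Cyt-c-p was still the 1 member called. At an unadjusted p under 0.05 there was 1 other, ND-18, in the opposite direction. For diet, 19 genes passed in control only and 2 (Cyt-c-p and Cyt-c1) in mutant only, and the like shares of all genes were not counted. Apart from that of Cyt-c-p, these calls in a single genotype are therefore not shown to differ between genotypes.

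Cyt-c-p encodes the cytochrome c of body tissues, the soluble carrier between complexes III and IV (2L 16719932 to 16722644, plus strand). In control it stood at 951, 964, 894 and 895 CPM on low sugar and at 936, 869.7, 885 and 892 CPM on high sugar, overlapping groups with a difference of -0.05 ± 0.05 (adjusted p = 0.460). With equal totals its control values were 928 to 994 on low sugar and 851 to 919 on high sugar, without overlap. Cyt-c-p fell in control by limma with equal totals and with quantile normalization. In mutant it stood at 938, 871, 774 and 814 CPM on low sugar and at 1008, 1033, 940.0 and 958 CPM on high sugar. There every high-sugar library was above every low-sugar one, and the rise was 0.22 ± 0.05 (adjusted p = 0.00373). The difference between these responses was 0.26 ± 0.08 (adjusted p = 0.0307). Leaving out 1 library kept its size between 0.22 and 0.31 and ended the call in 9 of 16 cases, with adjusted p from 0.00422 to 0.0664. The call was also lost without the 4 libraries highest in Tweedle cuticle genes (adjusted p = 0.133), with a difference of 0.25.

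**Figure D3:**
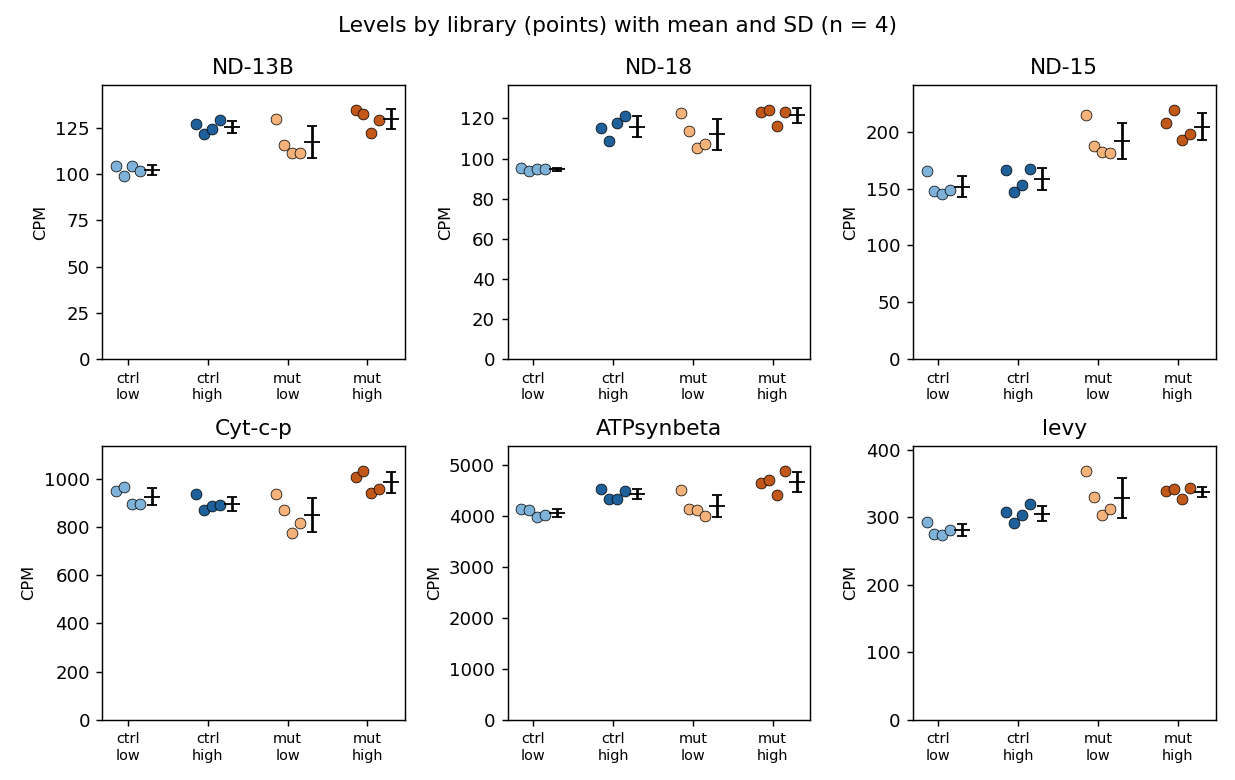
CPM of 6 genes in each library (points, linear axis from 0) with the group mean and SD (n = 4). ND-13B and ND-18 are lowest in control on low sugar, ND-15 is higher in all libraries labelled mutant, and Cyt-c-p is higher on high sugar in all mutant libraries while its control groups overlap.

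Between genotypes on low sugar, 20 of the 62 genes were higher in the libraries labelled mutant and none lower by limma, where 23.1% of all genes tested were higher and 20.8% lower. In 18 members the genotypes did not overlap, all higher in mutant, beside 19.2% of all genes higher and 18.1% lower. At an unadjusted p under 0.05, 24 were higher and 2 lower (ATPsynepsilonL and Cyt-c-p), and the authors' deposited table calls 19 higher and 0 lower. The median difference was 0.08, with 51 of 62 above 0. Under equal totals 15 were higher and 3 lower (Cyt-c-p, COX5B and ATPsynepsilonL), and with quantile normalization 8 were higher and 8 lower. Of the 9837 genes tested, 1915 were higher and 2533 lower with equal totals, and 1911 and 2510 with quantile normalization. Without replicate 1 of mutant on low sugar, 14 members were higher and 2 lower. The sum of all members was 4.8% higher, with overlapping groups, and 2.19% higher with equal totals.

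Complex I held 16 of these 20 genes, complex IV 3, complex III 1 and ATP synthase 0. For ATP synthase 2 of 12 passed at an unadjusted p, and its median difference was 0.03 (-0.07 with quantile normalization), beside 0.13 for complex I (0.04). With equal totals 12 were higher and 0 lower in complex I, and 0 were higher and 1 lower in ATP synthase. Complex IV had 2 higher and 1 lower with equal totals. Under quantile normalization the split was 6 higher and 1 lower in complex I, 0 higher and 3 lower in complex IV and 1 higher and 3 lower in ATP synthase.

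ND-15, an accessory subunit of the membrane arm (human NDUFS5; FBgn0031228, 2L 114726 to 156030, plus strand), differed most among the genes called. It stood at 165, 148, 145 and 149 CPM in control and at 215, 188, 182 and 182 CPM in mutant on low sugar, and at 167, 147, 153 and 167 CPM against 208, 219, 193 and 199 CPM on high sugar. On each diet every mutant library lay above every control library. The differences were 0.33 ± 0.06 (adjusted p = 0.000685) and 0.37 ± 0.06 (adjusted p = 0.000309), while neither diet response passed (0.06 in control, 0.10 in mutant). Its annotated exons overlap those of CG3436 on the same strand, which had differences of -0.07 (adjusted p = 0.387) and 0.13 (adjusted p = 0.135), and those of Pus10 on the other strand, so reads of these genes may be shared.

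ND-18 was higher by 0.24 ± 0.05 on low sugar, ND-13B by 0.19 ± 0.05 and ND-39 by 0.17 ± 0.04, with no overlap between genotypes. The membrane-arm subunits ND-B22 and ND-B14.7 were higher by 0.21 ± 0.05 and 0.24 ± 0.06, and the matrix-arm subunit ND-B14 by 0.24 ± 0.06. In complex IV levy, the counterpart of human COX6A, stood at 294, 275, 274 and 281 CPM in control and at 369, 330.5, 303 and 312 CPM in mutant. These libraries did not overlap, and levy was higher by 0.22 ± 0.05 (adjusted p = 0.00324), a call lost with quantile normalization. UQCR-C1 was the one gene of complex III to pass, at 0.17 ± 0.04 (adjusted p = 0.00626).

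On high sugar 7 of the 62 were higher in mutant and none lower by limma, where 21.1% of all genes tested were higher and 18.9% lower. The 7 genes are 11.3% of the members, a share below that of all genes, and the median difference was 0.04, with 43 of 62 above 0. In 9 members the genotypes did not overlap, all higher in mutant, beside 20.5% of all genes higher and 19.5% lower. At an unadjusted p under 0.05, 11 were higher and 0 lower, and the authors' deposited table calls 7 higher and 0 lower. The count rested on single libraries. It was 12 without replicate 1 of mutant on low sugar, which enters through the shared spread, 11 without replicate 3 of mutant on high sugar and 12 without the 4 libraries highest in Tweedle genes. It was 2 and 3 without replicates 2 and 3 of control on high sugar, and 4 and 3 without replicates 1 and 4 of mutant on high sugar. Equal totals gave 10 that were higher. With quantile normalization 7 were higher, of which 5 were among the main 7. Of the 9837 genes tested, 2184 were higher and 1732 lower with equal totals, and 1864 and 2031 with quantile normalization.

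The 7 genes were ND-15, ND-B14, ND-B22, ND-B14.7, Cyt-c1, UQCR-C1 and levy, and all but Cyt-c1 also passed on low sugar. ND-B14 was higher by 0.23 ± 0.06 (adjusted p = 0.00738) and ND-B22 by 0.16 ± 0.05 (adjusted p = 0.0151). Cyt-c1 stood at 701, 642, 649 and 694 CPM in control and at 751, 756, 708 and 765 CPM in mutant, without overlap, and was higher by 0.15 ± 0.05 (adjusted p = 0.0191). UQCR-C1 was higher by 0.14 ± 0.04, levy by 0.14 ± 0.05 (adjusted p = 0.0418) and ND-B14.7 by 0.16 (adjusted p = 0.0389). Of the 28 alternatives, 17 kept the call of levy and 22 that of ND-B14.7, and quantile normalization lost both. None of the 12 ATP synthase genes passed, nor did any of the 7 catalytic core genes of complex I, whose differences ran from -0.09 to 0.07.

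Over all comparisons 26 of the 62 genes were never called, and the share of all genes tested that were never called was not counted. Among them were 8 of the 12 genes of ATP synthase and the complex IV subunits COX5B, COX6B, COX7A, COX7C and COX8. Of the 62, 30 have exons that overlap another gene, and among the 32 without any overlap 16, 6, 11 and 3 rose in the 4 comparisons in the order given.

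Other genes of mitochondrial energy metabolism were counted from lists of textbook members, for comparison of values with the 62. Each list count is to be read beside the shares of all genes tested given above for its comparison. Complex II, succinate dehydrogenase, which feeds electrons to ubiquinone beside complex I, had 4 tested genes. All 4 rose on high sugar in control (SdhC by 0.15, SdhB by 0.12, SdhA by 0.08, SdhD by 0.13) and 2 rose in mutant, but with equal totals 0 rose in control and 1 in mutant, and SdhA turned to -0.03 in control with quantile normalization. All 4 were also higher in mutant on low sugar, SdhC by 0.25 (adjusted p = 4.9e-05), and on high sugar, SdhA by 0.20 (adjusted p = 0.00011), and these calls held with equal totals, with 3 of 4 left on each diet with quantile normalization.

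Of 12 tested genes of the mitochondrial genome, which encodes the remaining subunits, 3 rose on high sugar in control and 2 in mutant. In control these were mt:srRNA by 0.75, mt:CoIII by 0.30 and mt:CoII by 0.23. Of these, mt:srRNA is a ribosomal RNA, not a subunit gene, and the libraries were made from rRNA-depleted RNA. With quantile normalization 1 rose in each genotype, and the control calls of mt:CoIII and mt:CoII were lost. Between genotypes 1 was higher and 2 lower on low sugar, and 1 was higher and 5 lower on high sugar. There mt:ND4 was lower by -0.52, mt:ND1 by -0.48 and mt:ND5 by -0.56, while mt:CoII was higher by 0.28. The 4 nuclear complex I genes called there were higher, but most of the 32 did not pass, nor did any nuclear gene of the catalytic core. Both sets were picked by their calls, so no opposition between the genomes is shown.

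A list of metabolite carriers, porins and translocases of protein import had 13 tested genes, of which 3 rose and 6 fell on high sugar in control, beside 33.1% and 34.8% of all genes. All 5 translocase genes on it were among those that fell, Tim17b by 0.40. The translocase genes Tim23, Tom70, Tom40 and Tom20 fell by 0.84, 0.77, 0.68 and 0.63, while the malate and phosphate exchanger Dic1 and the pyruvate carrier Mpc1 rose by 0.97 and 0.69. In mutant 3 rose and 6 fell, 1 was higher and 4 lower on low sugar, and 4 were higher and 4 lower on high sugar. Equal totals gave 3 that rose and 8 that fell in control, where 2604 of all 9837 genes tested rose and 4063 fell. Of the 8 assembly factors found among 30 listed symbols, 0 rose and 3 fell on high sugar in control (AIF, ttm50 and Sdhaf3 by 0.73, 0.63 and 0.59).

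Of 11 genes that maintain and transcribe mitochondrial DNA, 1 rose and 6 fell on high sugar in control, among them mtSSB by 0.68, mtDNA-helicase by 0.64 and TFAM by 0.47. With equal totals 0 rose and 10 fell, under a scaling by which 4063 of all 9837 genes tested fell and 2604 rose. In mutant 0 rose and 5 fell, and between genotypes mtDNA-helicase was higher in mutant by 0.57 on low sugar and by 1.12 on high sugar. Among 9 transcriptional regulators 4 rose and 3 fell in control. srl, the fly member of the PGC-1 family of mitochondrial coactivators, fell by 1.08, and the sugar sensor Mondo rose by 1.18. Of 8 antioxidant genes 5 rose and 1 fell in control, the mitochondrial superoxide dismutase Sod2 rising by 0.19 and catalase (Cat) falling by 0.51.

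**Figure D4:**
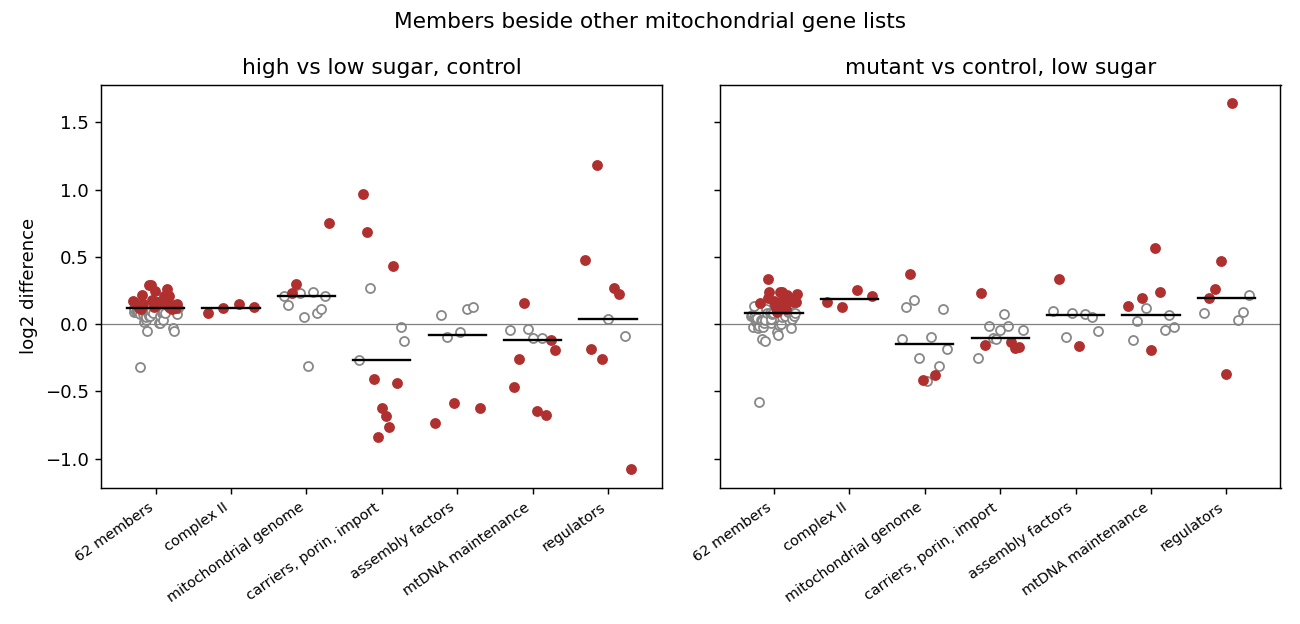
Log2 differences of the 62 genes and of 6 lists of related mitochondrial genes for the diet change in control and for mutant against control on low sugar; filled points passed (adjusted p under 0.05) and lines are medians. The 62 genes and complex II cluster near 0 and mostly above it, less so for the diet change with equal totals. For the diet change the import, assembly, mitochondrial DNA and regulator lists spread further and hold the larger falls, among them that of srl.

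Tissue markers moved in the same comparisons. Of all genes tested, 33.1% rose and 34.8% fell on high sugar in control, and 22.5% and 29.5% in mutant. Between genotypes 23.1% were higher and 20.8% lower on low sugar, and 21.1% and 18.9% on high sugar. Of 10 muscle genes, a tissue rich in mitochondria, 6 rose and 0 fell on high sugar in control, and their summed level was 45343 to 48664 CPM on low sugar and 51102 to 56889 on high sugar, though 0 rose with equal totals and 0 rose and 1 fell with quantile normalization. On high sugar 1 was higher and 7 lower in mutant, with a range of 43184 to 49123 CPM, and on low sugar 1 was higher and 5 lower, with 37149 to 47241 CPM in mutant. Of 6 neuron genes 5 rose and 0 fell in control, from 204 to 237 CPM summed on low sugar and 283 to 319 on high sugar, and all 4 glia genes rose, from 333 to 408 and 529.6 to 611 CPM. Between genotypes on low sugar, 4 neuron genes were higher and 0 lower, and 2 glia genes higher and 1 lower. Among the glia genes, the call of Eaat1 was lost with quantile normalization. Of 5 midgut genes 3 rose and 1 fell, at 2940.0 to 3559 and 3523 to 4435 CPM, and 4 were higher and 1 lower in mutant on each diet. Other marker lists held genes that fell. The urate oxidase gene Uro, a Malpighian tubule marker, fell by 5.13 on high sugar in control and fell by 6.23 in mutant, while Irk3, the other tubule gene tested, had a difference of 0.02 in control and rose by 0.16 in mutant. Of the 2 fat body genes tested, which summed to at most 3.48 CPM, 1 fell in control and 2 in mutant. Of 3 testis genes 1 fell in each genotype. Of the 2 male-specific genes roX2 fell by 0.84 on high sugar in control, and on high sugar it was higher in mutant by 1.05. The part of these tissues in the values of the 62 genes was not tested.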

How the data were processed

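RNA of whole larvae was measured in 16 libraries. Per the labels' protocols, a stranded kit was used on rRNA-depleted RNA, and each sample was sequenced in 2 technical runs (75 bp, single-end) to a stated mean of 30 M reads. The submitters' processing notes name Trimmomatic, TopHat2 (version 2.1.0), HTSeq and limma, with no role or order. The sources used here do not give the genome build, the annotation or whether counting used strand.

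The name of the deposited table says CPM, but 9 of its 16 library columns sum to more than CPM over a library's own total can. Whether the library sizes were normalized first is not stated. The deposited values were therefore handled as a signal whose scaling is not stated; the plan had assumed CPM, and its limma test was kept. Each value lay within 7.5e-09 reads of a whole multiple of its library's step. This was used to describe depth only: no count model was fitted to the recovered reads, and no counting intervals are given. The authors also deposited log2 coefficients, t and F scores and p-values of a model they do not describe; from these, only numbers of calls were taken.

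log2(CPM + 0.5) was computed for the 9837 genes with 1 CPM or more in 4 or more libraries. limma (version 3.58.1, R 4.3.3) fitted 1 mean per group to the 16 libraries together, followed by contrasts.fit and eBayes with a trend (12 residual and 2.97 prior degrees of freedom). The Benjamini-Hochberg adjustment was made within each of 5 comparisons, which share groups. The fit was also run on simulated data in which genes varied independently. The members moved together, so that run does not bear on their counts. Tables and figures used Python 3.11.15 with pandas 2.3.3, numpy 2.4.6 and matplotlib 3.10.9.

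The members, the gene lists and the tests were chosen with earlier results of these data known, and the subunit roles and the 3 subunits outside the symbol rule were added after values were seen. Named genes are up to 6 members of smallest adjusted p per comparison and direction, the largest and smallest differences per complex, catalytic core subunits, and up to 3 genes per list; other examples were chosen after their values were seen. Positions come from a BDGP6 annotation (Ensembl release 115), which holds 61 members by ID and Cyt-c-p by symbol. Alternatives changed the pseudocount, the filter or the scaling (median-ratio, quantile), made the fit robust, took the replicate number as a block, used only the 8 libraries compared, took the Tweedle score (mean log2 level of Tweedle cuticle genes) as a covariate, or left out the 4 libraries with the highest score or any 1 library. Equal totals were added after seeing the data.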

Additional observations from a re-analysis of the deposited data

Results flagged for a closer look

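The summed level of complex I in replicate 1 of control on low sugar was 5492 CPM, far from the 5177 to 5224 CPM of the other 3 libraries of its group. ND-18 in replicate 3 of mutant on high sugar stood at 116.1 CPM, apart from the 123 to 124.3 CPM of the other 3. These were the 2 of 84 groups of 4 libraries (16 named genes and 5 sums) whose extreme library stood this far out, and chance alone gives about 1 in 20. The diet response of Cyt-c-p differed between genotypes by 0.26 log2 units, with 0.22 in mutant and -0.05 in control, a difference that passed its own test by limma (adjusted p = 0.0307) and no longer passed in 9 of the 16 fits that left out 1 library.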

How the results depend on the processing

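No member count moved by over 1.5 times with other pseudocounts, other filters, median-ratio scaling, the robust fit or the Tweedle covariate, and the 20 summed levels moved by less than 1 SD with median-ratio scaling. Quantile normalization gave 13 rose and 3 fell in the diet response of control, and 8 higher and 8 lower between genotypes on low sugar. It turned the diet difference in control of ATPsynbeta to -0.031, ND-ACP to -0.15 (adjusted p = 0.0377), COX5A to -0.023, ATPsyngamma to -0.079, RFeSP to -0.039, COX6B to -0.12, UQCR-C1 to -0.032 and UQCR-C2 to -0.079, that in mutant of ATPsynbeta to -0.024, and the genotype difference on low sugar of ND-75 to -0.010 and COX6B to -0.11. Equal totals (each library divided by its own sum) gave 8 rose and 1 fell in control and 6 rose in mutant, and 3 lower between genotypes on low sugar; the median of all genes then shifted by -0.08 in the diet response of control. The 8 mutant libraries alone gave 4 that rose with diet. Without the 4 libraries of highest Tweedle score, 12 were higher on high sugar and 0 differed in diet response. The cause of these shifts was not tested.

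Leaving out 1 library gave 19 to 35 risen in control, 5 to 34 in mutant, 14 to 24 higher and 0 to 2 lower between genotypes on low sugar, 2 to 12 higher and 0 to 1 lower on high sugar, and 0 to 1 for the difference in response. The labels give all groups the same replicate numbers. Same-numbered libraries deviated together in part, with r from -0.34 to 0.44 over 24 pairs, a median of 0.13 and 13 pairs over 0.1. Pairs of different numbers had r from -0.57 to 0.50 over 72 pairs, a median of -0.03 and 26 pairs over 0.1. The main fit took the libraries to share only a number, and whether the number marks a shared batch was not tested. With the number as a replicate block 32 rose in control, 16 in mutant, 23 were higher and 2 lower (Cyt-c-p and ATPsynepsilonL) on low sugar, 10 higher on high sugar, and 1 differed in response. Depth limits ATPsynepsilonL most, at 1 to 3 CPM.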
